A study of Bos taurus with 21 samples.

Results

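A set of 30 endometrial transcripts was higher at day 16 than at day 13 in pregnant heifers and changed little over the same days in cyclic heifers. They were selected on their measured values, out of 13646 transcripts whose mean over 20 heifers was 5 CPM or more, and out of 28054 transcripts in all. CPM is the count per 1000000 counts in the file, and a level is given as log2(CPM + 1). A transcript was taken if its mean level was at least 0.7 higher at day 16 than at day 13 in pregnant heifers, with every pregnant day 16 heifer above every pregnant day 13 heifer. Its mean change in cyclic heifers also had to lie between -0.3 and 0.3, and its pregnant minus cyclic difference at day 16 had to be under 1. These conditions use all 4 group means, so the size of the rise, the flat course in cyclic heifers and the differences by pregnancy at either day are descriptions of what was chosen.

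Endometrium, the lining of the uterus, came from 20 cross-bred beef heifers brought into the same stage of the cycle by progesterone, released from a vaginal insert, and an analogue of prostaglandin. The 4 groups, of 5 heifers each, were non-inseminated cyclic heifers at day 13 and day 16 of the cycle, and inseminated heifers at day 13 and day 16 from which a conceptus of the proper stage was flushed. Tissue was mostly intercaruncular, from the horn beside the corpus luteum. Each heifer was slaughtered once, so the days are compared between animals, and pregnant means that a conceptus was recovered.

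Between these days the bovine conceptus turns from a small ovoid vesicle into a long filament. Its trophoblast secretes interferon tau, which prevents the luteolytic release of prostaglandin from the endometrium, so that the corpus luteum persists and goes on making progesterone. In the cycle, progesterone from the corpus luteum acts on the endometrium over the same days. Some transcripts can thus change with time under progesterone alone, and others with the presence of a conceptus.

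The files hold Ensembl transcript identifiers without symbols, and the reference table used here matched 0 of them. The roles of the members are therefore not given, the tissue label was not checked against marker genes, and gene lists could not be applied. Only 2 identifiers are printed: the member with the largest rise and the most abundant one. The other members are cited by their rank from 1 to 30, from the largest rise in pregnant heifers to the smallest. No sequences were available to print for them.

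Total counts per heifer ranged from 1256870 to 3764342, and each member had at least 5 counts in every heifer. The library labelled heifer 12, library 2, was left out by the rule, and the values of heifer 12 are those of its library 1. Over the 13646 transcripts, library 2 was closer to the library of heifer 19 than any other pair of 210 (correlation 0.61 of levels centred on each transcript's mean, against 0.48 for the next pair), while its correlation with library 1 of heifer 12 was 0.23, rank 26. Libraries also shared a numeric field in the deposited file names, here coded A to D, whose meaning the labels do not give.

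Averaged over the 30 members, group means went from a low point in pregnant day 13 heifers to a high point in pregnant day 16 heifers, with the means of both cyclic groups between. Pregnant day 16 had the highest group mean for 30 of 30 members, and pregnant day 13 had the lowest group mean for 26 of 30. The rise in pregnant heifers had a median of 0.81 on the log2 scale, from 0.71 to 1.04, beside a median of 0.00 over the 13646 transcripts. In ratios of mean CPM this was a median of 1.83-fold, from 1.62-fold to 2.21-fold. The change in cyclic heifers had a median of 0.10 (-0.26 to 0.28), was positive in 18 members and negative in 12, and corresponded to ratios of 0.793 to 1.25. The members are thus transcripts with modest changes of similar size. The floor of 0.7 on the rise and the limit of 1 on the day 16 difference favour such sizes, so they describe what was chosen. Only 1 of the members would remain if a rise of at least 1 were required.

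**Figure D1:**
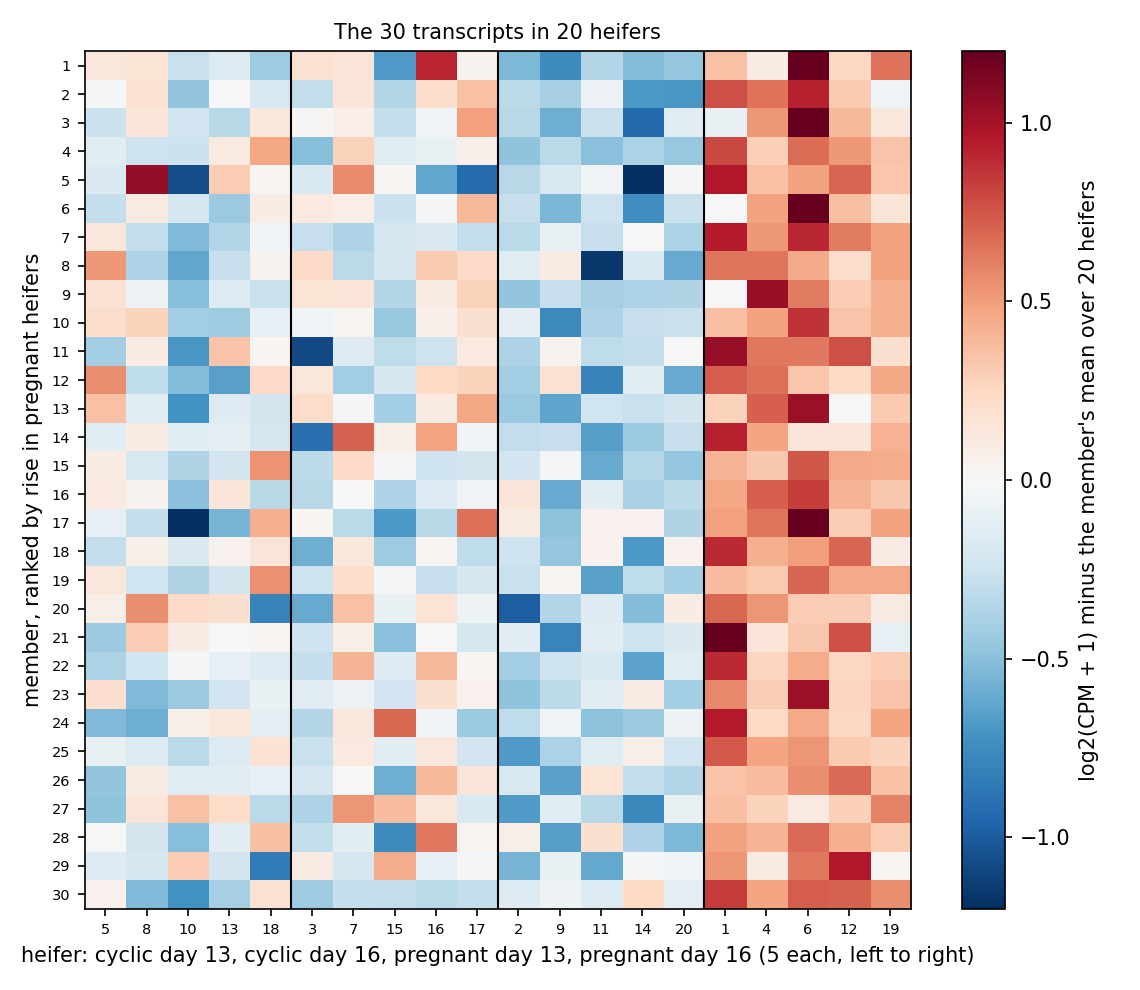
Level of each of the 30 members (rows, ranked by rise) in each of the 20 heifers (columns, numbered as in the labels and grouped by state and day), as log2(CPM + 1) minus the mean of that member over 20 heifers. The pregnant day 16 columns are above the pregnant day 13 columns in every row, as the rule required, and the cyclic columns have intermediate values that often overlap those of pregnant day 13.

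Averaged over the 30 members, the level separated the pregnant day 16 heifers from the other 15 and the pregnant day 13 heifers from all but 1 of the cyclic ones. The mean level was 5.21, 5.43, 5.51, 5.52 and 5.54 in the cyclic day 13 heifers and 5.34, 5.35, 5.58, 5.62 and 5.63 in the cyclic day 16 heifers. It was 5.20, 5.24, 5.24, 5.27 and 5.29 in the pregnant day 13 heifers and 5.89, 5.99, 6.02, 6.16 and 6.28 in the pregnant day 16 heifers. Pregnant day 13 was thus both the lowest and the tightest group (SD 0.03, n = 5), against an SD of 0.14, 0.15 and 0.15 in cyclic day 13, cyclic day 16 and pregnant day 16. The rule favours low values and a low spread in that group, so both are descriptions of what was chosen. Pregnant day 13 heifers left out of the choice, described below, lay 0.02 ± 0.09 (SD, n = 5) from the cyclic day 13 mean. One cyclic day 13 heifer, number 10, lay inside the range of the pregnant day 13 heifers, and the 2 cyclic groups overlapped. The group means were 5.44, 5.50, 5.25 and 6.07 in the same order of groups, while the mean over the 13646 transcripts was between 5.17 and 5.19 in each group. As a share of all counts, the members held 0.329% ± 0.0291 (SD, n = 5) in cyclic day 13, 0.351% ± 0.0209 in cyclic day 16, 0.284% ± 0.0105 in pregnant day 13 and 0.508% ± 0.0742 in pregnant day 16 heifers. In bulk tissue, fewer cells of a type and less RNA per cell cannot be told apart.

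**Figure D2:**
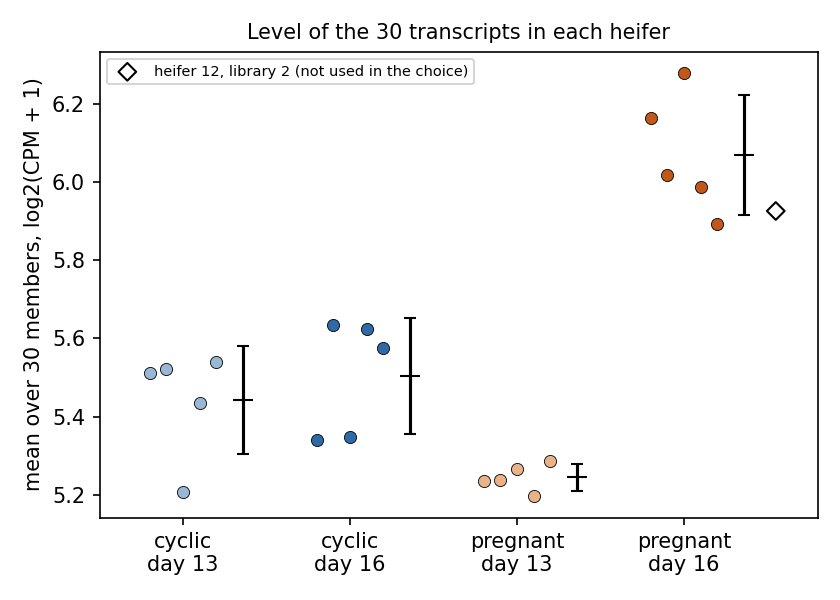
Mean log2(CPM + 1) over the 30 members (y axis) in each heifer (points, 5 per group), with the group mean ± SD beside them, and the library of heifer 12 that the rule left out (diamond). Pregnant day 16 heifers lie between 5.89 and 6.28, all other heifers between 5.20 and 5.63, and the diamond is at 5.93.

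Among pregnant day 16 heifers the highest mean level, 6.28, was that of heifer 6, and the lowest, 5.89, that of heifer 19. Heifer 1 had the highest value of the group for 13 members and heifer 6 for 12, whereas heifer 19 had the lowest value for 11. The order of the 5 heifers by mean level was the reverse of their order by total counts, apart from heifers 6 and 1: from the highest level to the lowest, total counts were 2051986 in heifer 6, 1256870 in heifer 1, 2696610 in heifer 4, 2817200 in heifer 12 and 3257988 in heifer 19. Heifer 6 also had the lowest mean level over the 13646 transcripts, 5.11 against 5.14 to 5.21 in the remaining 19 heifers. In the pregnant day 13 heifers total counts averaged 2579160 ± 751574 (SD, n = 5), against 2416130 ± 778578 (n = 5) in the day 16 group. The part of depth in the level of the members was not tested.

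The file-name codes were spread over both pregnant groups, so the rise could be read inside 3 of them. It was 0.84 in code A (2 heifers at each day), 0.63 in code B (1 at day 16, 2 at day 13) and 0.91 in code C (2 and 1), and 30 of 30 members were higher at day 16 in each of the 3. In cyclic heifers the mean change over the members was 0.14 in code A (1 and 1 heifer) and -0.01 in code C (3 and 1), while codes B and D held cyclic heifers of a single day. These are the heifers that chose the members, so the agreement in direction within codes is part of the choice.

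The members spanned 2 orders of abundance. Their mean over 20 heifers ranged from 5.59 to 764 CPM with a median of 48.7 CPM, beside a median of 33.98 CPM over the 13646 transcripts. Of the 30, 8 were above 100 CPM and 9 were under 20 CPM. Values are counts per transcript not divided by length, so levels of different members are not compared as molecules.

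The most abundant member, ENSBTAT00000000144, stood at rank 13 by rise. It had 439, 624, 654, 664 and 931 CPM in cyclic day 13, and 549, 721, 779, 851 and 1004 CPM in cyclic day 16 heifers. In pregnant heifers it had 469, 535, 605, 619 and 625 CPM at day 13. By day 16 the values were 726, 884, 904, 1199 and 1495 CPM. The pregnant groups did not overlap, but 3 of the 5 pregnant day 16 heifers lay below the highest cyclic day 16 heifer, at 1004 CPM. The mean was 571 ± 67.1 CPM (SD, n = 5) in pregnant day 13 and 1042 ± 306 CPM (n = 5) in pregnant day 16, a ratio of 1.82. In cyclic heifers it was 662 ± 176 CPM (n = 5) at day 13 and 781 ± 167 CPM (n = 5) at day 16, a ratio of 1.18. The edgeR log2 fold change between days was 0.89 (SE 0.20) in pregnant and 0.23 (SE 0.20) in cyclic heifers, and the difference between the changes was 0.66 (SE 0.28). Without pregnant day 16 heifer 6 the change in pregnant heifers was 0.70 and was no longer called.

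The member with the largest rise, ENSBTAT00000006727, was of low abundance. It had 14.9, 16.8, 18.1, 22.5 and 22.95 CPM in cyclic day 13, and 12.3, 21.1, 22.8, 23.3 and 39.4 CPM in cyclic day 16 heifers. In pregnant heifers it had 11.7, 13.7, 13.96, 14.6 and 15.8 CPM at day 13. By day 16 the values were 21.9, 24.5, 26.3, 32.5 and 49.2 CPM. Cyclic heifer 16 at day 16, with 39.4 CPM, lay above 4 of the 5 pregnant day 16 heifers, so these groups overlapped. The mean was 13.94 ± 1.49 CPM (SD, n = 5) in pregnant day 13 and 30.9 ± 10.98 CPM (n = 5) in pregnant day 16, a ratio of 2.21. The mean in cyclic heifers was 19.05 ± 3.54 CPM (n = 5) at day 13 and 23.8 ± 9.80 CPM (n = 5) at day 16, a ratio of 1.25. The edgeR log2 fold change between days was 1.17 (SE 0.26) in pregnant and 0.31 (SE 0.25) in cyclic heifers, and the difference between them was 0.85 (SE 0.36). The lower level in pregnant than in cyclic heifers at day 13 was similar in size (-0.41) to the higher level at day 16 (0.39) on the log2(CPM + 1) scale.

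**Figure D3:**
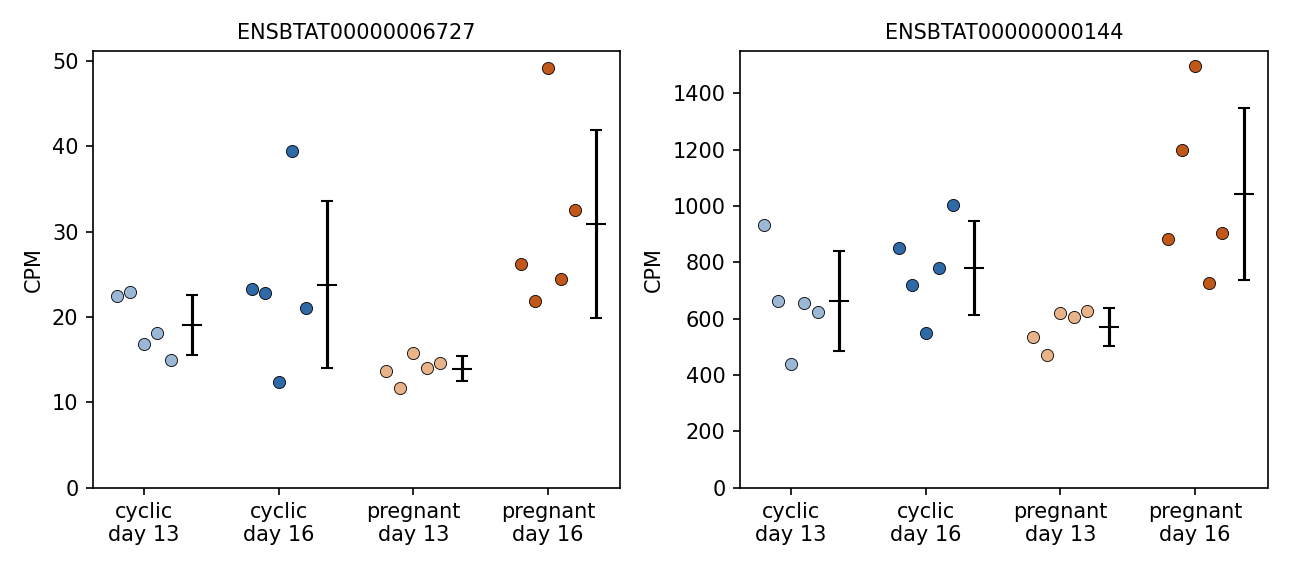
CPM (y axis, from 0) of the member with the largest rise, ENSBTAT00000006727, and of the most abundant member, ENSBTAT00000000144, in each heifer (points, 5 per group) with the group mean ± SD. In both, pregnant day 13 heifers form a narrow low group, pregnant day 16 heifers a wide high one, and the cyclic day 16 heifers overlap the latter.

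The comparison of the change in pregnant with the change in cyclic heifers is the one on which the description of a rise in pregnancy alone rests, and few members passed it. An edgeR quasi-likelihood fit over all 20 heifers, with Benjamini-Hochberg adjustment over 14826 transcripts, called a transcript at an adjusted p under 0.05. The difference between the day changes was called as positive in 2 of the 30 members, where 0.472% of all transcripts tested were called. Over the members this difference had a median of 0.83 on the log2 scale, from 0.51 to 1.24, with a median SE of 0.28, beside a median of -0.01 over all transcripts tested. The unadjusted p in this comparison was under 0.05 for 22 of the 30, beside 1645 of the 14826 transcripts. For the other 28, a difference between pregnant and cyclic heifers in the change over days was not established by this test. DESeq2 called 7 members in this comparison, where it called 112 of 14826 transcripts, and limma voom 2, where it called 74. Without cyclic day 13 heifer 10 edgeR called 6, where 93 of 14968 transcripts were called. Without pregnant day 16 heifer 19 it called 4, where 83 of 14976 were called. In each of these comparisons the members had been chosen on the same group means, so nothing is read from how many were called.

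For the change between days in pregnant heifers, 22 of the 30 were called as higher at day 16, where 1.85% of all transcripts were called as higher. The 8 that were not called included 7 with a mean under 25 CPM and the member of rank 28, with a mean of 164 CPM. In cyclic heifers 0 of the 30 were called in either direction, where 1.72% of all transcripts were called. There 0 of the 30 had an unadjusted p under 0.05, and DESeq2 and limma voom also called 0 of the 30. All 30 members separated the 2 pregnant groups by the rule, as did 2.18% of the 13646 transcripts, and 0 of the 30 separated the cyclic days in either direction, beside 3.75%.

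The 2 members called for the difference were those of rank 4 and rank 7, singled out after their values were seen. The member of rank 4, number 3 in abundance, had 331, 336, 342, 360 and 374 CPM in pregnant day 13 and 572, 595, 671, 748 and 814 CPM in pregnant day 16 heifers. In cyclic heifers it ranged from 391 to 649 CPM (median 430 CPM) at day 13 and from 330 to 567 CPM (median 440 CPM) at day 16. Every pregnant day 13 heifer lay below every cyclic day 13 heifer, and every pregnant day 16 heifer lay above every cyclic day 16 heifer. The edgeR test did not call it at day 13 (edgeR adjusted p = 0.727). Its difference between the day changes was 1.05 (SE 0.21) in edgeR, and it was called under 28 of 28 alternative fits.

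The member of rank 7 had similar mean levels in pregnant and cyclic heifers at day 13 and was higher in pregnant heifers at day 16. It had 64.5, 66.8, 69.2, 78.6 and 84.2 CPM in pregnant day 13 and 118, 121, 130, 158 and 162 CPM in pregnant day 16 heifers. In cyclic heifers it ranged from 57.9 to 92.3 CPM at day 13 and from 64.7 to 74.2 CPM at day 16, so each pregnant day 16 heifer was above each of the other 15. The pregnant minus cyclic difference was 0.00 at day 13 and 0.96 at day 16, just under the limit of 1. Its difference between the day changes was 1.00 (SE 0.20), and it was called under 27 of 28 alternative fits, not with the file-name code as a factor.

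Most members combined a level below that of cyclic heifers at day 13 with a level above that of cyclic heifers at day 16. At day 13 the pregnant minus cyclic difference had a median of -0.22, from -0.44 to 0.28, and was negative in 27 of the 30 members. At day 16 it had a median of 0.53, from 0.23 to 0.99, and was positive in all 30. Over the 13646 transcripts the medians were -0.01 and -0.03. The differences of the members come from the heifers that chose them. In 3 members the deficit at day 13 was larger in size than the excess at day 16. Averaged over members, the rise of 0.82 in pregnant heifers was the sum of the day 16 excess of 0.56, the day 13 deficit of 0.20 and the change of 0.06 in cyclic heifers.

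**Figure D4:**
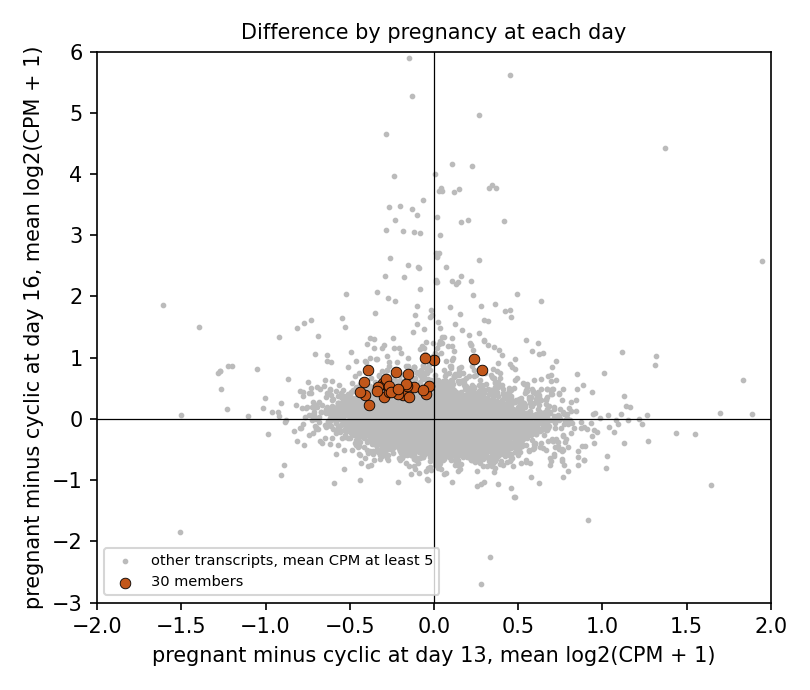
Mean log2(CPM + 1) in pregnant minus cyclic heifers at day 13 (x axis) and at day 16 (y axis), for the 30 members (orange) and the other transcripts averaging 5 CPM or more (grey). The members lie above 0 at day 16, and 27 of the 30 lie below 0 at day 13.

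A minority of the members were apart from cyclic heifers at a given day. The limit of 1 at day 16 had removed 23 transcripts with a larger excess, so these counts describe what was chosen. The pregnant day 16 heifers all exceeded the cyclic day 16 heifers for 10 of the 30 members, beside 1.49% of the 13646 transcripts, and all exceeded the other 15 heifers for 6, beside 0.689%. The pregnant day 13 heifers all lay below the cyclic day 13 heifers for 2 members, those of rank 4 and 14, beside 0.322%. For 0 members did they lie below the other 15 heifers, beside 0% of the 13646. The edgeR test at day 16 called 6 members as higher in pregnant heifers, where 0.931% of all transcripts were called. The unadjusted p at day 16 was under 0.05 for 23 of the 30, beside 1002 of the 14826 transcripts. Without any 1 of heifers 1, 3, 6, 12 and 15 the test called 3 members, where 116 to 124 of all transcripts were called. Without heifer 18 it called 9, where 145 of 14985 were called. DESeq2 called 10, where it called 177 of 14826. At day 13 edgeR called 0 members and 0% of all transcripts, with 1 member and 970 of the 14826 transcripts at an unadjusted p under 0.05. DESeq2 called 3 transcripts at day 13 and limma voom 0, none of them members.

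The 6 members that were called at day 16 had ranks 4, 7, 11, 16, 18 and 30. The members of rank 7 and 30 were called under 28 of 28 alternative fits, that of rank 16 under 27, and those of rank 4, 11 and 18 under 20, 18 and 22. The member of rank 30 had the smallest rise and nearly the largest excess at day 16. It had 106, 107, 110, 114 and 140 CPM in pregnant day 13 and 166, 176, 195, 198 and 213 CPM in pregnant day 16 heifers. In cyclic heifers it ranged from 71.8 to 134 CPM at day 13 and from 88.2 to 97.8 CPM at day 16. Its pregnant minus cyclic difference was 0.23 at day 13 and 0.98 at day 16, so that it was 1 of the 3 members, with ranks 7 and 17, that were not lower in pregnant heifers at day 13.

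Heifers left out when the members were chosen again showed a smaller rise. The rule and its limits stayed the same, and they had been set with earlier results of these data known. Each heifer was left out in turn, the members were chosen again from the remaining 19, and their mean level in the heifer left out was set against the group of the other day in the same state. The sets had 24 to 52 transcripts, of which 22 to 30 were among the 30 members. For pregnant day 16 heifers left out, the day 16 minus day 13 difference was 0.48, 0.49, 0.67, 0.69 and 0.81, and for pregnant day 13 heifers it was 0.49, 0.49, 0.56, 0.56 and 0.68. The mean over the 10 pregnant heifers was 0.59 ± 0.11 (SD, n = 10), and 10 of the 10 were positive. In the heifers that stayed in the choice the same difference was 0.82 to 0.89. The heifers of the other day took part in each choice, and the rule favoured low values at day 13 and high values at day 16. The size and sign of the difference in a pregnant heifer left out are therefore partly set by the choice. Over all transcripts with at least 5 CPM, the difference in the pregnant heifers left out was between -0.08 and 0.04.

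In cyclic heifers left out in the same way the difference was 0.10 ± 0.18 (SD, n = 10), from -0.14 to 0.50, and positive in 8 of 10. Heifer 10 of cyclic day 13 gave the value of 0.50, above the values of 4 pregnant heifers, and without it the mean was 0.06 ± 0.12 (n = 9), with a highest value of 0.20. The SD of the cyclic heifers was thus larger than their mean. The 10 pregnant and 10 cyclic values share heifers and sets, so no test was made between them.

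Pregnant day 13 heifers left out of the choice were not as a group below the cyclic day 13 mean, while pregnant day 16 heifers left out were all above the cyclic day 16 mean. Pregnant day 13 heifers left out lay at -0.09, -0.01, 0.02, 0.03 and 0.15 from the cyclic day 13 mean, 0.02 ± 0.09 (SD, n = 5), whereas the pregnant day 13 heifers kept in the choice lay 0.25 to 0.31 below it. Pregnant day 16 heifers left out lay 0.16, 0.20, 0.38, 0.40 and 0.54 above the cyclic day 16 mean, 0.34 ± 0.16 (n = 5), and those kept in the choice lay 0.54 to 0.59 above it. Heifers 12 and 19 were the 2 lowest of these. For the cyclic day 13 heifers left out, the pregnant minus cyclic difference was -0.17, -0.26, -0.14 and -0.26 for heifers 5, 8, 13 and 18 and 0.16 for heifer 10, with a mean of -0.13 ± 0.17 (n = 5). The difference was thus negative with 4 of the 5 cyclic day 13 heifers left out. All pregnant day 13 heifers had a part in those sets, and the rule favoured low values in them. A lower level at day 13 was therefore not seen apart from the choice.

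**Figure D5:**
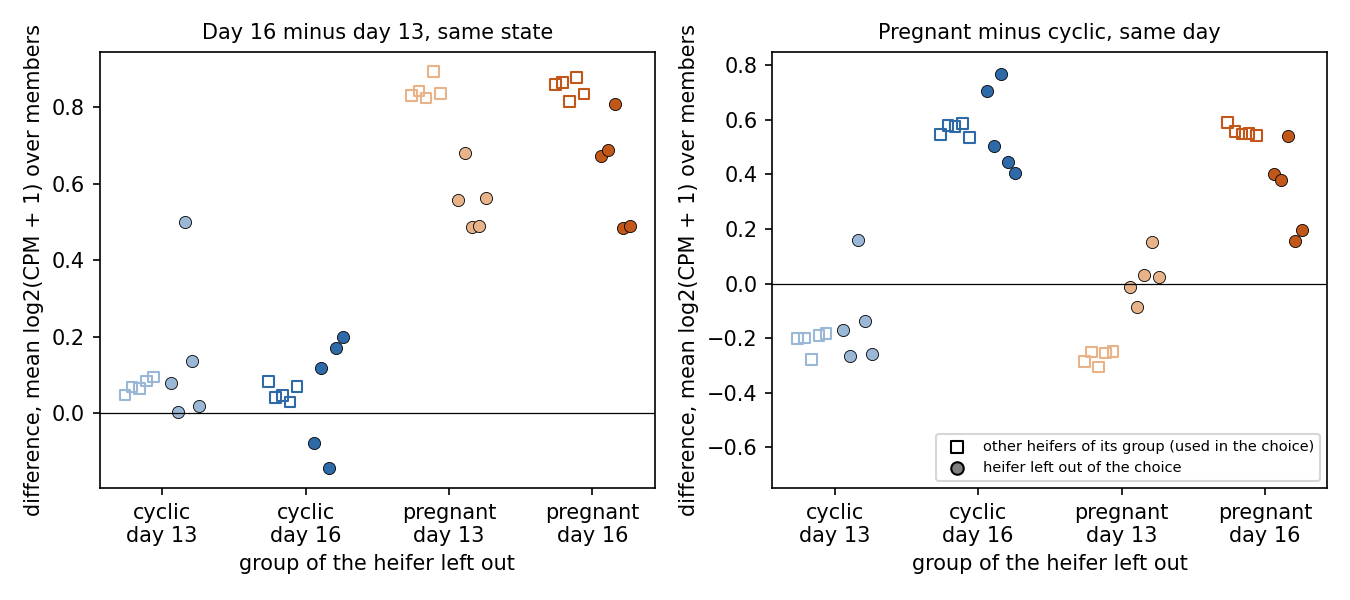
Left: day 16 minus day 13 within a state, and right: pregnant minus cyclic at the same day, both as mean log2(CPM + 1) over members chosen again without 1 heifer (y axis), by the group of that heifer (x axis). Filled points are the heifer left out and open squares the other heifers of its group, which took part in the choice. The heifers that both are set against also took part in the choice. Filled points of pregnant heifers lie below the squares at left and reach 0.48 to 0.81, and those of pregnant day 13 lie around 0 at right.

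Transcript by transcript, the pregnant heifers left out were more often beyond the other day than for transcripts in general. The heifers of the other day had taken part in the choice, which favoured low values at day 13 and high values at day 16. The excess over transcripts in general is therefore partly set by the choice. Between 66.7% and 91.7% of the transcripts chosen were higher in the pregnant day 16 heifer left out than in every pregnant day 13 heifer, against 14.1% to 24.5% of all transcripts with at least 5 CPM. For pregnant day 13 heifers left out, 57.7% to 84.8% were lower than in every pregnant day 16 heifer, against 14.9% to 31.1%. For cyclic heifers left out these shares were 7.14% to 35.5% at day 16 and 10% to 58.8% at day 13, the highest being that of heifer 10, against 16.9% to 27.9% of all transcripts.

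Library 2 of heifer 12, which the rule left out, had a mean level of 5.93 over the 30 members, inside the range of the pregnant day 16 heifers. It exceeded all pregnant day 13 heifers for 29 of the 30 members. The share over all transcripts was not computed for this library. In single pregnant day 16 heifers left out of the choice that share was 14.1% to 24.5%. ENSBTAT00000000144 had 988 CPM and ENSBTAT00000006727 had 36.4 CPM in it. The mean absolute difference over the members was 0.14 on the log2 scale between this library and that of heifer 19, and 0.25 between it and library 1 of heifer 12. Since heifer 19 and library 1 of heifer 12 took part in the choice, this library is not counted as an independent heifer.

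Membership depended on which heifers were present. Of the 30 members, 5 were chosen in all 20 sets that left out 1 heifer, 27 in at least 15 of them, and the member of rank 17, with the fewest, in 12. In these sets, 118 transcripts that are not members were chosen at least once. In the full data, 18 of the 30 lay within 0.05 of at least 1 limit of the rule. The smallest rise among members was 0.712 and the largest among transcripts that failed this limit alone was 0.6996. The largest cyclic change was 0.28 inside and the smallest outside was 0.31, and the narrowest gap between the pregnant groups was 0.01 inside and -0.002 outside.

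The rule was met in steps. Of the 13646 transcripts, 340 were at least 0.7 higher at day 16 in pregnant heifers, and 157 of them also separated the 2 pregnant groups. Of these 157, 49 were above 0.3 and 55 below -0.3 in the change of cyclic heifers, which left 53. The limit of 1 at day 16 removed 23 of the 53. Those 23 had a median rise of 1.26, a median excess at day 16 of 1.40 and a median difference at day 13 of 0.06, below 0 in 8 of 23, against 27 of 30 in the members. The 2 sets are defined by the excess at day 16, so this difference between them was not tested.

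The same kind of rule turned to other directions found sets of similar size. The 30 members were 0.220% of the transcripts with at least 5 CPM. The mirror of the rule, a fall between days in pregnant heifers alone, was met by 42 transcripts, or 0.308%. With the states exchanged, a rise in cyclic heifers and a flat course in pregnant ones, it was met by 29 transcripts, or 0.213%.

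The members varied together from heifer to heifer to a small degree. After removal of the 4 group means, the mean correlation between pairs of members over the 20 heifers was 0.139, beside 0.00576 over the 13646 transcripts, and 65.7% of the 435 pairs were positive. Pairs ranged from -0.71 to 0.99. All members come from the same libraries and share their totals, and the choice favoured low spread in pregnant groups, so these values describe the set. The members of rank 15 and 19 had a correlation of 0.99 and kept a ratio of 1.15 to 1.24 in all 20 heifers. Those of rank 3 and 6 had a correlation of 0.98 with a ratio of 1.29 to 1.64, and those of rank 8 and 12 a correlation of 0.90. Whether such pairs are transcripts of 1 gene could not be read from the files, and if reads were shared between them, the 30 members hold fewer than 30 separate measurements.

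Heifers that were low or high for the members in general could be named in each group. Cyclic day 13 heifer 10 was above the mean of its group for 7 of 30 members, and cyclic day 16 heifers 3 and 15 for 9 and 10. Pregnant day 16 heifer 19 was above the group mean for 3 of 30, heifer 12 for 7 and heifer 6 for 20. In pregnant day 13 no heifer departed from the group in this way, with 14 to 17 of 30 members above the mean in each. The median SD between heifers of a single member was 0.25 in pregnant day 13, 0.27 in pregnant day 16, 0.31 in cyclic day 13 and 0.30 in cyclic day 16, beside 0.31, 0.27, 0.27 and 0.25 over the 13646 transcripts. Counting error alone would give a median SD of 0.15 in pregnant day 13 and 0.12 in pregnant day 16, and the observed SD was above it in 22 and 25 of the 30 members. The biological coefficient of variation, edgeR's estimate of the spread between heifers beyond counting, had a median of 0.193 in the members and 0.188 over all transcripts tested.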

How the data were processed

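RNA from 21 libraries of 20 heifers was sequenced as single Illumina reads (labels' protocols). For each library the authors deposited whole-number read counts, not normalized, of 28054 Ensembl transcripts. The submitters' processing notes name CASAVA. Not given in the sources used here were the aligner, counting program, use of strand, build and annotation, so counts of overlapping transcripts and of paralogs are uncertain. Groups and heifer numbers came from the sample titles, and heifer 12 is its library 1. The members, the rule and the comparisons were chosen with earlier results of these data known.

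CPM used the file total and levels a pseudocount of 1. edgeR (4.0.16, R 4.3.3) was fitted to 20 heifers with 4 group means and TMM factors, after filterByExpr (min.count 10, min.total.count 15) had kept 14826 transcripts and all 30 members. Calls used an adjusted p under 0.05. An SE is the absolute fold change over the root of F. DESeq2 (1.42.0), limma voom (3.58.1), other scalings, filters, libraries of heifer 12, the file-name code and each heifer left out were alternatives. Members were named by rule as the largest rise and the highest mean CPM, since the files give no symbols. Scripts were tested on simulated data. The labels do not say that libraries were prepared separately, and counting errors assume independent reads.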

Additional observations from a re-analysis of the deposited data

Results flagged for a closer look

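In 20 sets of 5 values, 1 heifer stood far from the rest of its group, where about 1 set in 20 does so without cause. Cyclic day 13 heifer 10, when left out of the choice, gave a day 16 minus day 13 difference of 0.501, against 0.004 to 0.14 for the other 4. Its own level over the members was the lowest of the cyclic heifers.

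The direct edgeR test found that the change between days differed between pregnant and cyclic heifers for the member of rank 4, by 1.05 on the log2 scale, and for that of rank 7, by 1.00 (edgeR adjusted p = 0.0129 and 0.0123). Both were chosen by the rule on the same group means, so these p-values are not independent of the choice.

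Library 2 of heifer 12, which entered only alternative settings, had a mean level of 5.93 over the members, above each of the cyclic and pregnant day 13 heifers.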

How the results depend on the processing

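The number of transcripts that met the rule was 71 with a minimum rise of 0.5 and 1 with a minimum rise of 1, 80 with no separation required, 53 with no limit at day 16, and 24 (without heifer 6) to 52 (without heifer 14) when single heifers were left out. It was 46 without heifer 20 and 46 without heifer 19. It stayed within 1.5 times of 30 under the other scalings, pseudocounts, abundance minimums, cyclic windows and libraries of heifer 12. Members called for the difference between the day changes numbered 7 with DESeq2, 1 with the file-name code as a factor, and 2 to 6 with single heifers left out, with 6 without cyclic heifer 10. It was 4 without heifer 19. Over all transcripts, 112 were called for this difference with DESeq2 and 49 with the file-name code as a factor, against 70 in the main fit. With single heifers left out, 53 to 98 were called. Members called at day 16 numbered 10 with DESeq2 and 3 to 9 with single heifers left out, with 3 without each of heifers 1, 3, 6, 12 and 15 and 9 without heifer 18. Over all transcripts the day 16 comparison called 177 with DESeq2 and 116 to 159 with single heifers left out, against 138 in the main fit. The causes were not tested. Members called between days in pregnant heifers numbered 18 to 25 over 28 alternatives, where 165 to 392 of all transcripts were called as higher. Between days in cyclic heifers 0 members were called under any of them, where 118 to 440 of all transcripts were called. At day 13 0 members were called, where 0 to 3 of all transcripts were called. The call of ENSBTAT00000000144 between days in pregnant heifers was lost without heifer 6.

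The rise in pregnant heifers left out of the choice was 0.59 and 0.61 with TMM factors. In each case it was measured against heifers of the other day that took part in the choice. With libraries 1 and 2 of heifer 12 summed or with library 2 alone, both chosen after seeing the data, it was 0.65 and 0.72. In the latter, heifer 19, whose library is closest to library 2, stays in the choice when heifer 12 is left out. With heifers 12 and 19 left out together, the rise was 0.473 in heifer 12 and 0.467 in heifer 19, over 81 transcripts chosen. The mean of these values and those of the other pregnant heifers, each left out singly, was 0.59. The mean correlation between members was 0.11 to 0.15 over its alternatives, of which leaving out single heifers was chosen after seeing the data. No paired analysis was possible because no heifer number is shared between groups. Low counts limit the 9 members under 20 CPM.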
